A study of Rattus norvegicus with 10 samples.

Results

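Aldo-keto reductases are NADPH- or NADH-dependent enzymes that reduce aldehydes and ketones to alcohols. The 9 genes described here are Akr1a1, Akr1b1, Akr1b7, Akr1b8, Akr1c12l1, Akr1c13, Akr1c14, Akr1c19 and Akr1e2, out of 32545 genes in the table and 18 whose symbol starts with Akr. They were chosen by symbol, with their FPKM in these libraries and the difference between males and females already known, so that difference is described with no p-value, and whether a member passed the study's thresholds is given as part of the description. FPKM scales fragments to the length of the gene and the depth of the library, so levels may be set side by side between genes. The libraries hold renal cortex RNA from 10 separate PCK rats, 5 of each sex. PCK rats carry a spontaneous mutation of Pkhd1 and are a model of autosomal recessive polycystic kidney disease. All 10 rats carried the mutation and none was treated, so there was no wild-type group. The sample labels name the tissue as kidney and give an age of 12 to 14 weeks, while the methods of the study name the cortex, give a younger range, and describe littermates of a pair of litters. The litter of each rat was not used here.

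Reactive aldehydes arise in the kidney from lipid peroxidation and from the metabolism of sugars. Akr1a1, aldehyde reductase, reduces glucuronate to gulonate on the route to ascorbate in rats. Akr1b1, aldose reductase, reduces glucose to sorbitol, which the medulla uses as an osmolyte. The Akr1c enzymes oxidise or reduce hydroxyl and keto groups of steroids and also act on aldehydes and xenobiotics. Many Akr genes are copies of each other that lie side by side, so reads of near-identical copies may have been split between them in counting.

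Between 13912569 and 20285911 reads per male library and between 14963924 and 19556707 per female library fell on genes. Mitochondrial genes took 14.3 to 26.8% of the reads, and the highest share was in female 2. Eif2s3y, a Y-linked gene, had 880 to 1456 reads in the males and 1 to 7 in the females. Summed proximal tubule markers ranged from 2136 to 3734 FPKM in the males and from 1865 to 3839 FPKM in females, with the lowest sum in female 2. In bulk tissue, fewer cells of a type and less RNA per cell cannot be told apart.

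All 9 members were above the filter of a mean of 0.1 FPKM over the 10 libraries, Akr1b7 only through its level in females, since its male mean of 0.0548 FPKM is below it. With limma on log2(FPKM + 0.1), the thresholds, taken from the study's methods, were 0.05 for the adjusted p and 1 for the size of the log2 difference. Akr1b7 passed both as higher in females, where 0.618% of the 17631 genes tested did so. Akr1c12l1 and Akr1c13 passed both as lower in females, where 0.698% of all genes tested did so. The FPKM ranges of the sexes did not overlap for Akr1b7, higher in females (2.5% of all genes tested), and for Akr1c12l1, Akr1c13 and Akr1c19, lower in females (2.6% of all genes tested). These counts describe the members and carry no further weight, since the same contrast was known when they were chosen. The median log2 difference (female minus male) was −0.21 over the 9 members and −0.01 over all genes tested.

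The members occupy 3 places in the genome on build Rnor_6.0. Akr1e2, Akr1c12l1, Akr1c13, Akr1c19 and Akr1c14 lie in a run of 12 genes on chromosome 17 from 69365453 to 69862110. Akr1b1, Akr1b8 and Akr1b7 lie in this order in a run of 3 genes on chromosome 4 from 61706864 to 61862526. Akr1a1 stands alone on chromosome 5 from 135482068 to 135498822, on the minus strand.

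RefSeq promoter windows on build GRCr8, running from 250 bases before to 50 bases after the start, were matched by symbol for 8 of the 9 members, all but Akr1b1. RefSeq also gives Akr1c12 as an older name of Akr1c13, and each was matched by its current symbol. Of each, the 250 bases before the start are printed for Akr1c12l1 and Akr1c13, the genes lower in females past both thresholds, for Akr1c12, a close copy at a low level in both sexes, and for Akr1b7, the gene higher in females. Capitals mark matches, on either strand, to motifs searched in the whole window.
Akr1c12l1, chr17:70847504-70847753, plus strand: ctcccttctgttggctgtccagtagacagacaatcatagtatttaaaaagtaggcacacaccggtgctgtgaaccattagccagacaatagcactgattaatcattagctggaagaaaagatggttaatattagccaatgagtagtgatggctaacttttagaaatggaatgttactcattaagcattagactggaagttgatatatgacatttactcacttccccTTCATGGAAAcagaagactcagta
Akr1c13, chr17:70894386-70894635, plus strand: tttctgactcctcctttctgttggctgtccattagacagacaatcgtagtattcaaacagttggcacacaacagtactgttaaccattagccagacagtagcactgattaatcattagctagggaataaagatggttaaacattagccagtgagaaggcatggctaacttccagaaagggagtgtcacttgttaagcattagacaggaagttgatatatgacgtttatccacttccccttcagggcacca
Akr1c12, chr17:70971413-70971662, minus strand: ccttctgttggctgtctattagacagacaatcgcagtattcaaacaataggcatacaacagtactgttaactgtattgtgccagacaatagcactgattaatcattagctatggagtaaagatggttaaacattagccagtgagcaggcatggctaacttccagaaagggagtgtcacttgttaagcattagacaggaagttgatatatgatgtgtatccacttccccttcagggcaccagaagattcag
Akr1b7, chr4:64043720-64043969, plus strand: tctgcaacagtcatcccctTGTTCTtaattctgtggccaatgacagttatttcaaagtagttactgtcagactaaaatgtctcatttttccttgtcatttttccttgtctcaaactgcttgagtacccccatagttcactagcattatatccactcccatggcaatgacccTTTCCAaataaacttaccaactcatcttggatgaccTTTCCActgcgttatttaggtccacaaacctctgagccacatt

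The windows of Akr1c12l1, Akr1c13 and Akr1c12 were close copies. Over a global alignment of the 300 bases, Akr1c12l1 was 79.9% identical to Akr1c13 and 82% identical to Akr1c12, and Akr1c13 was 85.9% identical to Akr1c12. The other 42 pairs among the members, Akr1c12 and AKR1C3l1, a further gene of the run, were 45.3 to 56.4% identical, with a median of 49.3%. The motif of the signal transducer STAT5 (TTCNNNGAA) matched the window of Akr1c12l1 and of no other member that had one, from position −24 relative to the start, and 8.87% of the 33469 windows in the RefSeq table held it. In the same window the core of the tonicity element (TGGAAA), which overlaps that match, lay at −20. The tonicity core was also in the windows of Akr1b7, at −79 and −43, and Akr1c14, at −41, and in 22.7% of all windows. The steroid receptor half-site (AGAACA) matched Akr1b7 at −231 and Akr1b8 at −217, on the opposite strand in both, and 20.7% of all windows. The antioxidant response element (TGACNNNGC), in 12.1% of all windows, and the palindromic oestrogen response element, in 0.0269%, matched no member that had a window. These matches describe letters in the windows and do not show binding.

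**Figure D1:**
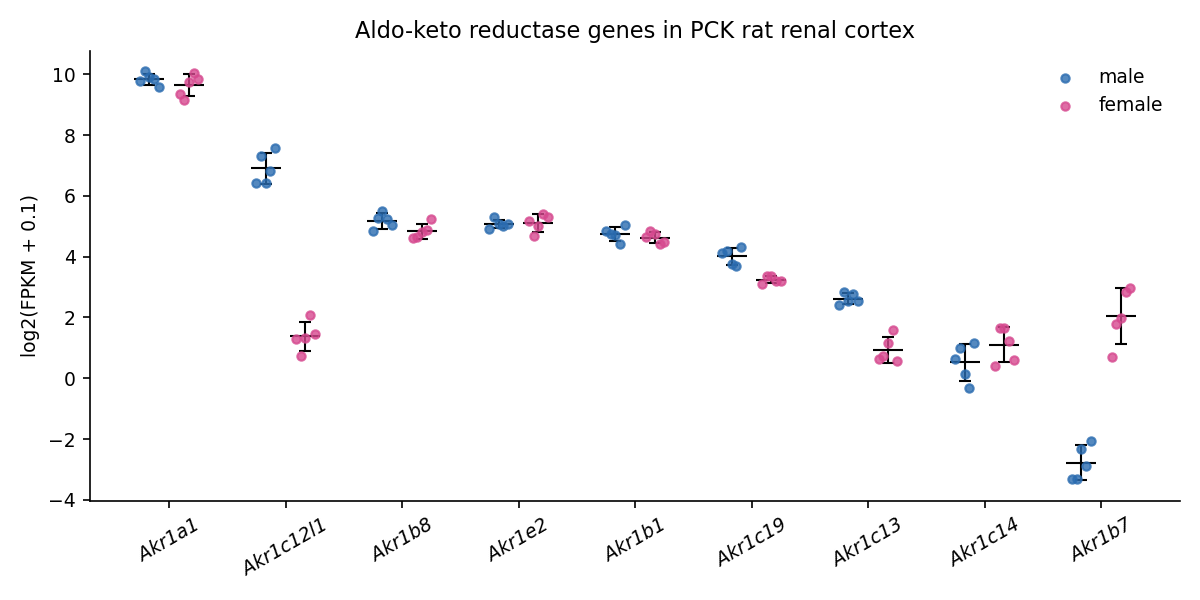
Level of each member in each library, as log2(FPKM + 0.1), with 1 point per rat, males in blue and females in pink. Bars give the mean ± SD of 5 rats. Akr1c12l1, Akr1c13 and, by less, Akr1c19 are separated downwards in females, and Akr1b7 upwards. The ranges of the other genes overlap.

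Akr1a1 was the most abundant member in both sexes. Its level was 884, 1102, 957, 914 and 778 FPKM in males 1 to 5 and 662, 575, 860, 1069 and 930 FPKM in females 1 to 5. The means were 927 ± 118 FPKM (SD, n = 5) in the males and 819 ± 201 FPKM (SD, n = 5) in females. The ranges overlapped widely, and females 1 and 2 lay below every male. The log2 difference (female minus male) was −0.21 (SE 0.18), and −0.09 without female 2, the library with the lowest proximal tubule sum. After the mean of each sex was subtracted, the log2 level of Akr1a1 followed the summed proximal tubule markers over the 10 libraries (Pearson r = 0.94, a description). A U6 RNA gene lies within Akr1a1 on the opposite strand, with 15 reads over all libraries.

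Akr1b1 differed little between the sexes. It lies from 61706864 to 61720956 on the minus strand and had 21.1 to 32.6 FPKM in the males and 21.2 to 28.8 FPKM in females. Its means were 27.1 ± 4.21 FPKM (SD, n = 5) and 24.8 ± 3.19 FPKM (SD, n = 5), with a log2 difference of −0.12 (SE 0.12). Unlike for Akr1a1, r with the proximal tubule marker sum within sexes was −0.68 (10 libraries).

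Akr1b8, known as a reductase induced by fibroblast growth factor, lies from 61771970 to 61828657 on the plus strand. It ranged from 28.5 to 45.4 FPKM in the males and from 24.3 to 37.7 FPKM in females. The means of 36.5 ± 6.37 and 28.9 ± 5.41 FPKM (SD, n = 5 each) differed by −0.34 (SE 0.15) on the log2 scale, and the ranges overlapped.

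Akr1b7, first described as a vas deferens protein and known for detoxifying aldehydes released in steroid synthesis in the adrenal cortex, lies 3′ of Akr1b8 from 61850348 to 61862526 on the plus strand. The males had 0, 0, 2, 1 and 3 reads on the gene, at or below the limit of detection of 3 reads, and the females had 36, 66, 92, 177 and 176. In FPKM the females had 1.52, 3.31, 3.85, 7.07 and 7.81, against at most 0.142 in a male. Every female was above every male, and females 4 and 5 had the highest values. Means were 0.0548 ± 0.0629 FPKM (SD, n = 5) in the males and 4.71 ± 2.65 FPKM (SD, n = 5) in females. Scaled to library size, the summed reads, 547 in females and 6 in males, had a ratio of 94.1 (95% exact interval 43.0 to 258, covering counting error only). The log2 difference of 4.84 (SE 0.44) understates so large a ratio because of the pseudocount.

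Akr1b7 is abundant in the adrenal cortex, and the levels of adrenal markers are given beside it. The summed level of 7 adrenal genes was 0.911 to 1.62 FPKM in the males and 0.898 to 1.41 FPKM in females (exact permutation test of the means, two-sided, p = 0.508, adjusted over 11 marker lists p = 0.621). Cyp21a1, Cyp11a1 and Star, enzymes and a transporter of steroid synthesis, stood at means of 0.195 to 0.450 FPKM. Cyp11b2, aldosterone synthase, had 0 to 7 reads per library and the corticotropin receptor Mc2r had 0 to 10. Of the 4 adrenal genes tested, 0 passed both thresholds by limma or limma-voom, and 0 were at an unadjusted p under 0.05, where 7.67% of all genes tested were higher and 8.07% lower in females. The part of adrenal RNA in the level of Akr1b7 was not tested.

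Akr1e2, which reduces anhydrofructose, is the first gene of the chromosome 17 run, from 69365453 to 69379947 on the plus strand. Its level was 29.96 to 39.1 FPKM in the males and 25.4 to 42.2 FPKM in females, with the lowest value in female 2. Means of 33.8 ± 3.37 and 35.0 ± 6.58 FPKM (SD, n = 5 each) gave a log2 difference of 0.03 (SE 0.13). Its r with Akr1a1 within sexes was 0.78.

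Akr1c12l1 was far lower in females than in males. RefSeq also lists it as Akr1c17, a hydroxysteroid dehydrogenase. It lies from 69588085 to 69599142 on the plus strand. The males had 86.8, 158, 86.4, 113 and 191 FPKM and the females 2.34, 1.57, 2.42, 4.16 and 2.62 FPKM. The lowest male was far above the highest female, and males 2 and 5 were highest. Means were 127 ± 46.1 FPKM in the males and 2.62 ± 0.948 FPKM in females (SD, n = 5 each), a 48.5-fold ratio of male to female means and a log2 difference of −5.54 (SE 0.27). A male had 1523 to 3584 reads on the gene and a female 27 to 90. The coefficient of variation was alike in the sexes, at 36.3% in males and 36.2% in females.

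Akr1c13, its close copy, lies from 69634890 to 69647765 on the plus strand. The males had 5.21, 7.02, 5.75, 6.73 and 5.69 FPKM and the females 1.47, 1.57, 2.14, 2.92 and 1.39 FPKM. All females were below all males, and the males spread less than the females relative to their mean, with coefficients of variation of 12.6% and 33.9%. The means of 6.08 ± 0.763 and 1.90 ± 0.643 FPKM (SD, n = 5 each) gave a 3.203-fold ratio of male to female and a log2 difference of −1.67 (SE 0.20).

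Akr1c19, a further dehydrogenase of the run, lies from 69654170 to 69675203 on the plus strand. The males had 17.4, 18.1, 13.4, 12.9 and 19.7 FPKM and the females 8.40, 10.1, 10.2, 9.18 and 8.995 FPKM. The groups did not overlap, although male 4 and female 3 were close. Means of 16.3 ± 2.99 and 9.38 ± 0.765 FPKM (SD, n = 5 each) gave a ratio of 1.74 and a log2 difference of −0.77 (SE 0.13), which is below the threshold of 1.

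Akr1c14, the classical hydroxysteroid dehydrogenase of rat liver, lies from 69806065 to 69827112 on the minus strand. It was at 0.708 to 2.12 FPKM in the males and 1.23 to 3.08 FPKM in females, from 34 to 119 reads per library. Means of 1.43 ± 0.588 and 2.20 ± 0.871 FPKM (SD, n = 5 each) gave a log2 difference of 0.58 (SE 0.34) with overlapping ranges.

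**Figure D2:**
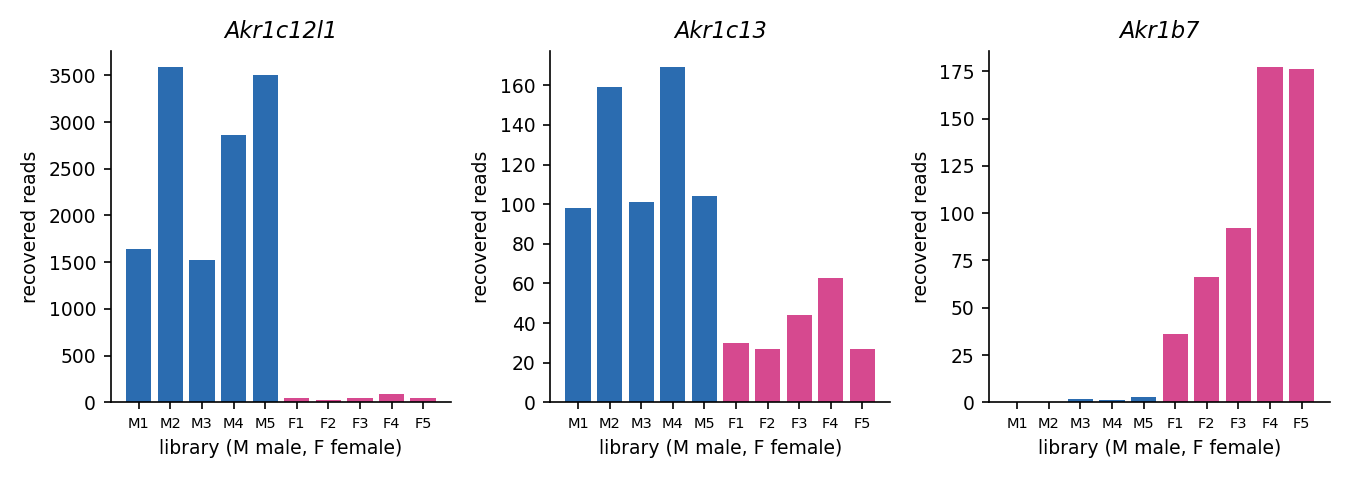
Whole reads recovered from the FPKM in each library for Akr1c12l1, Akr1c13 and Akr1b7, males M1 to M5 in blue and females F1 to F5 in pink, with a separate axis from 0 for each gene. Akr1c12l1 had 1523 or more reads in every male and at most 90 in a female, while Akr1b7 had at most 3 reads in a male and at least 36 in a female.

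The order of the members differed between the sexes. In males, Akr1a1 was followed by Akr1c12l1, then Akr1b8, Akr1e2 and Akr1b1, whose ranges overlapped in that order, then Akr1c19, Akr1c13, Akr1c14 and Akr1b7, each separate from its neighbours. In females, Akr1a1 was followed by Akr1e2, Akr1b8 and Akr1b1 with overlapping ranges, then by Akr1c19. Akr1b7, Akr1c12l1, Akr1c14 and Akr1c13 closed the female order, each overlapping the next. Akr1c12l1 thus stood at rank 2 in males and rank 7 in females, and Akr1b7 at rank 9 and rank 6.

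Along the chromosome 17 run, the members lower in females were neighbours. From the start of the run came Akr1e2, Akr1c2, Akr1c1 and RGD1564865, with log2 differences of 0.03, 1.18, 0.21 and 0.20. Then came Akr1c12l1, Akr1c13 and Akr1c19 with −5.54, −1.67 and −0.77, interrupted by AABR07072562.1, which had 5 reads in all. Akr1c12 followed at −0.57, then Akr1c3 with 3 reads, Akr1c14 at 0.58 and Akr1cl at −0.08. On chromosome 4, Akr1b7 differed by 4.84 and its neighbours Akr1b8 and Akr1b1 by −0.34 and −0.12.

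**Figure D3:**
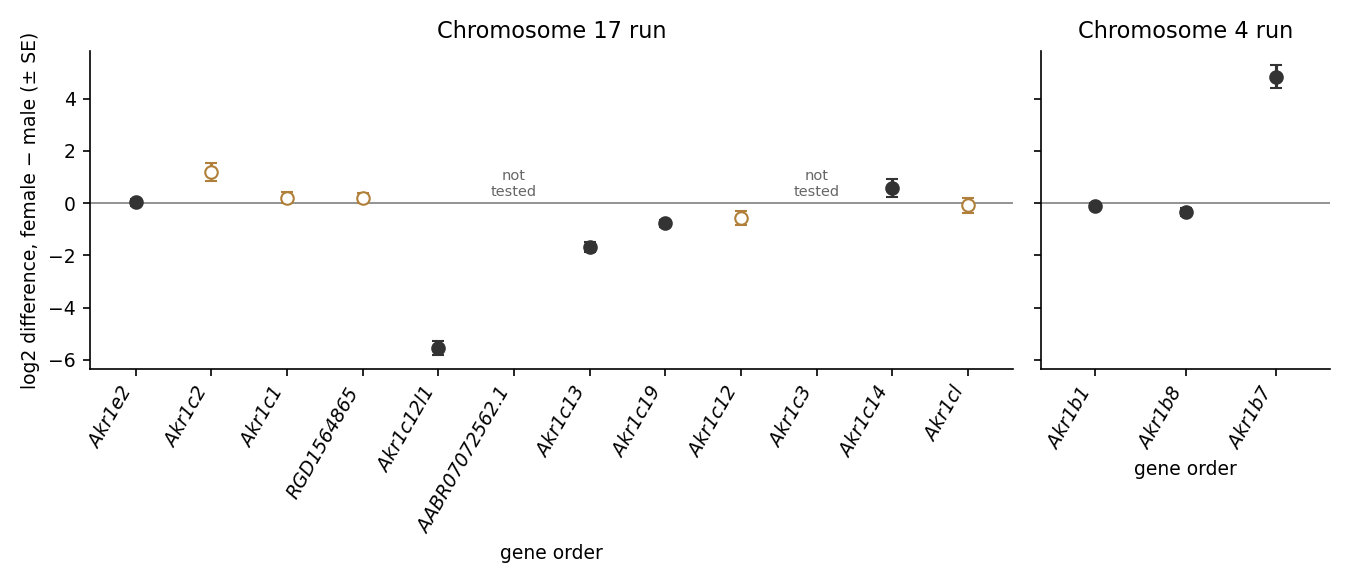
Log2 difference (female minus male) ± SE of each gene in the order of the chromosome 17 and chromosome 4 runs, with members filled and other genes open; genes under the filter are marked as not tested. Akr1c12l1, Akr1c13, Akr1c19 and Akr1c12 lie below 0 next to each other, and Akr1b7 is alone at 4.84.

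The aldo-keto reductases outside the members gave the family background. Of 12 further Akr and Kcnab genes, 10 were tested, and 0 passed both thresholds in either direction by limma or limma-voom, while 3 (Akr7a2, Kcnab1 and Akr1c2) were higher in females at an unadjusted p under 0.05 (7.67% of all genes tested). Akr7a3 and Akr7a2, aldehyde reductases known for aflatoxin detoxification, were abundant at 448 ± 90.2 and 156 ± 16.2 FPKM in the males and 444 ± 98.3 and 193 ± 27.2 FPKM in females (SD, n = 5 each), with log2 differences of −0.02 (limma adjusted p = 0.982) and 0.30 (adjusted p = 0.226). Akr1c1 was at 61.5 ± 14.8 FPKM in the males and 71.9 ± 20.8 FPKM in females (adjusted p = 0.699). Akr1c12, the close copy of Akr1c13, had 0.878 and 0.563 FPKM (adjusted p = 0.355).

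Among the low genes, Akr1c2 had separate ranges, with 6 reads over all males and 26 over all females and an adjusted p of 0.108, and it too passed the filter only through the females. Kcnab1, a potassium channel subunit of the aldo-keto reductase fold, was at 2.14 and 3.19 FPKM (adjusted p = 0.179). Akr1cl, Kcnab2, Akr1b1-ps2 and Kcnab3 had means of at most 2.76 FPKM in either sex and adjusted p-values of 0.531 or more. Akr1d1, which reduces a steroid double bond in liver, had 3 reads over all libraries and was not tested.

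The annotation deposited with the values marks 27 genes with the aldo-keto reductase domain, of which 6 have other symbols. The most abundant of these, RGD1564865, was singled out after its values were seen; RefSeq names it AKR1C3l1. It had 154 ± 30.9 FPKM in the males and 180 ± 51.4 FPKM in females (SD, n = 5 each), a log2 difference of 0.20 (SE 0.20, limma adjusted p = 0.690).

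Summed over the 9 genes with an Akr1c prefix, the level was 216 ± 46.2 FPKM in the males and 91.3 ± 21.8 FPKM in females (SD, n = 5 each), and these ranges did not overlap. With RGD1564865 added, the sums were 370 ± 59.5 and 271 ± 73.0 FPKM, and the ranges overlapped. Akr1c12l1 made up 34.0% ± 9.69 of the larger sum in males and 0.959% ± 0.163 in females (SD, n = 5 each). RGD1564865 made up 41.7% and 66.1% of it, and Akr1c1 16.8% and 26.5%. The sum of Akr1b1, Akr1b8 and Akr1b7 was 63.7 ± 5.72 FPKM in the males and 58.4 ± 6.04 FPKM in females, and Akr1b7 made up 0.0824% and 7.82% of it. Over all 18 Akr genes the sums were 1845 ± 222 and 1641 ± 343 FPKM, of which Akr1a1 made up 50.3% and 49.6%.

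**Figure D4:**
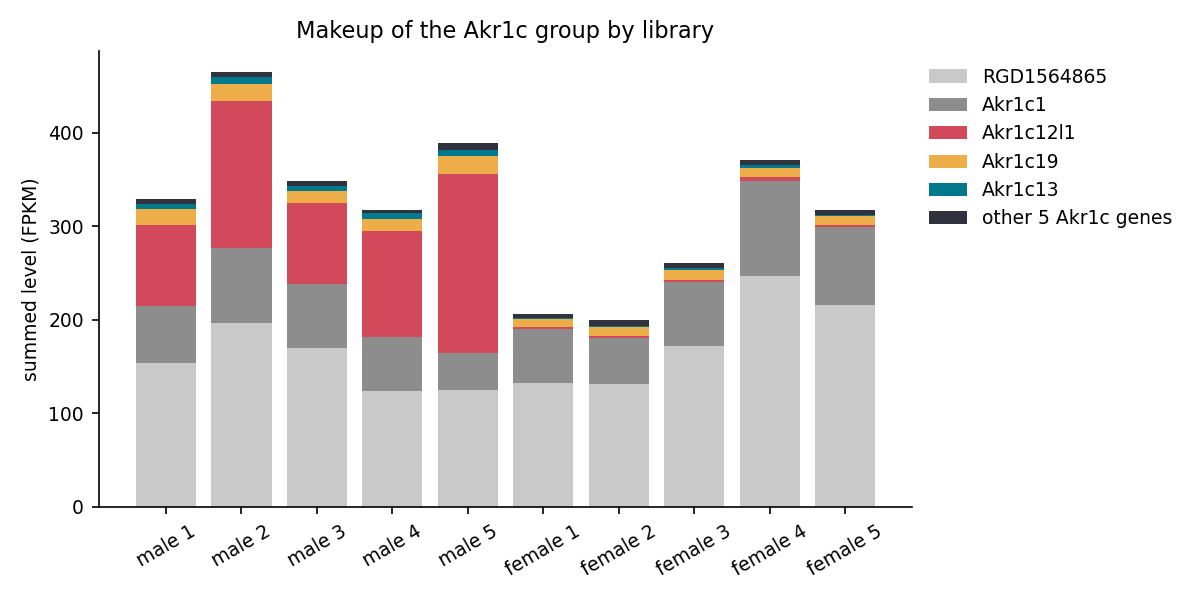
Summed FPKM of RGD1564865 and the 9 genes with an Akr1c prefix in each library, stacked by gene from 0. Akr1c12l1 fills 24.8 to 49.1% of the bar in males and 0.783 to 1.13% in females, while RGD1564865 averages 154 FPKM in males and 180 FPKM in females.

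The genes that work beside these enzymes were read from the same limma fit. Of 105 tested genes in 7 lists, the further aldo-keto reductases included, 1 passed both thresholds as higher in females and 3 as lower. The median log2 difference was 0.04.

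In the glucuronate pathway that holds Akr1a1, 9 genes were tested, and 1 was lower (0.698% of all genes tested) and 0 higher in females by limma. At an unadjusted p under 0.05, 1 was higher (7.67% of all genes tested), Ugp2. At that cut 2 were lower (8.07% of all genes tested), Rgn and Gusb, both with separate ranges. Limma-voom passed 1 lower and 0 higher. The gene past both thresholds was Rgn, regucalcin, the lactonase that follows Akr1a1 on the route to ascorbate. Rgn had 60.6, 110, 50.5, 102 and 119 FPKM in the males and 10.4, 8.03, 8.78, 15.5 and 17.7 FPKM in females. All females were below all males, and the log2 difference was −2.85 (SE 0.29, limma adjusted p = 0.000374). Gulo, the last enzyme of that route, which acts in liver, was at 0.194 and 0.358 FPKM with separate ranges (adjusted p = 0.365) and is named after its values were seen. Miox, which makes glucuronate from inositol in the proximal tubule, had 821 and 896 FPKM (adjusted p = 0.834). Cryl1 and Dcxr, which act on gulonate and xylulose, had adjusted p-values of 0.905 and 0.715. The median of the list was 0.08 on the log2 scale.

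In the polyol and osmolyte list beside Akr1b1, 0 of 7 tested genes passed in either direction by limma or limma-voom, and 0 at an unadjusted p under 0.05, with log2 differences from −0.27 to 0.19 and a median of 0.02. Sord, which oxidises the sorbitol made by Akr1b1, had 234 ± 42.2 FPKM in the males and 243 ± 66.5 FPKM in females (limma adjusted p = 0.974). Khk, which phosphorylates fructose, had 176 and 205 FPKM (adjusted p = 0.689).

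Among 25 tested genes for other enzymes of aldehydes and ketones, 1 was higher in females (0.618% of all genes tested) and 0 were lower, also with limma-voom. At an unadjusted p under 0.05, 2 were higher (7.67% of all genes tested), Adh6 and Aldh1l1, and 1 was lower (8.07%), Aldh1b1. Aldh1l1 had 32.2 and 46.4 FPKM (limma adjusted p = 0.296, and 0.0225 without female 2). Adh6, an alcohol dehydrogenase, had 10.2, 17.3, 15.2, 11.04 and 4.27 FPKM in the males and 148, 71.4, 60.1, 223 and 140 FPKM in females. The lowest female was above the highest male, and the log2 difference was 3.44 (SE 0.42, limma adjusted p = 0.00151). Aldh6a1, Aldh2 and Aldh7a1, mitochondrial aldehyde dehydrogenases and the most abundant of the list, had adjusted p-values of 0.877, 0.617 and 0.9501. The median of the list was 0.09.

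Of the steroid enzymes, 0 of 19 tested genes passed both thresholds by limma, and the median was −0.06. At an unadjusted p under 0.05, 6 were higher and 3 lower in females (7.67% and 8.07% of all genes tested), and limma-voom passed 1, Hsd17b2. Hsd11b1, which regenerates active glucocorticoid, had 107 ± 19.8 FPKM in the males and 57.5 ± 15.7 FPKM in females, a log2 difference of −0.91 (SE 0.18, limma adjusted p = 0.0250) that is below the threshold of 1; without female 4 it passed both thresholds as lower in females. Hsd11b2, which inactivates glucocorticoid in the distal nephron, had 178 and 216 FPKM (adjusted p = 0.498). Hsd17b4, a peroxisomal enzyme, had 89.4 and 69.3 FPKM (adjusted p = 0.137).

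For the regulator NRF2, its targets and the enzymes of NADPH supply, 0 of 15 tested genes passed in either direction by limma or limma-voom, with a median of 0.20, while 3 (Txnrd1, Me1 and Nqo1) were higher in females at an unadjusted p under 0.05 (7.67% of all genes tested). Gclc and Gclm, the subunits of the enzyme that starts glutathione synthesis, had adjusted p-values of 0.953 and 0.751 by limma, and Idh1, a source of NADPH, 0.908.

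Among 20 tested hormone receptors and signalling genes, 0 were higher (also at an unadjusted p under 0.05 and with limma-voom) and 2 lower in females by limma, with a median of −0.08. Prlr, the prolactin receptor, had 12.8, 16.5, 12.2, 35.8 and 20.8 FPKM in the males and 5.94, 3.18, 3.73, 5.67 and 4.44 FPKM in females. The ranges were separate and male 4 was highest, with a log2 difference of −1.99 (SE 0.29, limma adjusted p = 0.00369). Esr1, the oestrogen receptor alpha, had 5.50 ± 0.826 FPKM in the males and 2.40 ± 0.791 FPKM in females (SD, n = 5 each), a log2 difference of −1.20 (SE 0.20, adjusted p = 0.00793). Hnf4a, a factor of proximal tubule identity, Ghr, the growth hormone receptor, and Nr1h4, the bile acid receptor, had adjusted p-values of 0.926, 0.691 and 0.637.

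**Figure D5:**
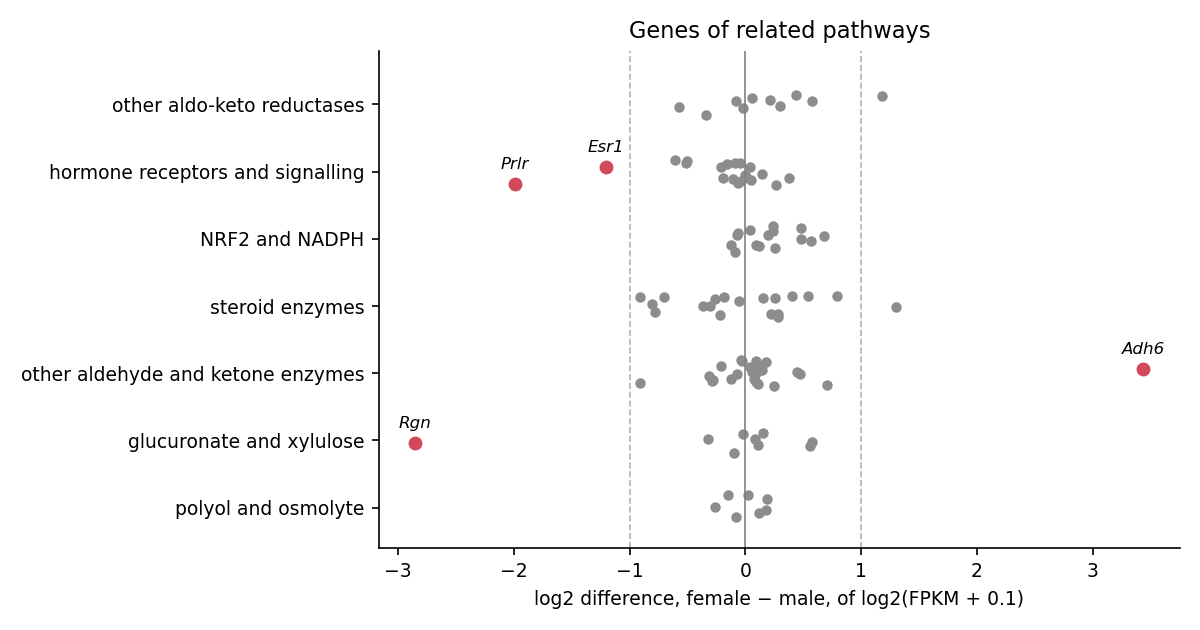
Log2 difference (female minus male) of the 105 tested genes in 7 lists around the aldo-keto reductases, 1 point per gene, with broken lines at −1 and 1. Labelled red points pass both thresholds: Rgn, Prlr and Esr1 on the left and Adh6 on the right.

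Markers of cell types were set beside the members. The summed proximal tubule markers were 3060 ± 599 FPKM in the males and 2895 ± 780 FPKM in females (two-sided exact permutation test, p = 0.730). Within this sum, genes lay in opposite directions. Cubn was higher in females, with a log2 difference of 0.72 (limma adjusted p = 0.0467). Aqp1 and Slc22a6 were lower, with −0.56 and −0.53 (limma adjusted p = 0.233 and 0.160). Of these 9 genes, 0 passed both thresholds, and their median log2 difference was −0.03. Markers of the straight part summed to 1027 ± 493 and 1090 ± 403 FPKM (exact p = 0.786). In the straight part the abundant genes lay in opposite directions, Slc7a13 with 361 and 695 FPKM and Aadat with 597 and 290 FPKM (limma adjusted p = 0.312 and 0.193), the median log2 difference of the 5 genes was 0.73, and Slc5a1, a glucose transporter, had separate ranges, higher in females, with an adjusted p of 0.0353. The 5 fibroblast genes summed to 249 to 332 FPKM in the males and 79.0 to 231 FPKM in females, without overlap (exact p = 0.00794, the smallest that 5 against 5 allows, adjusted over 11 lists p = 0.0873), and Col3a1 among them passed both thresholds with −1.14 (limma adjusted p = 0.0477). The collecting duct genes summed to 290 ± 51.7 and 389 ± 52.7 FPKM (exact p = 0.0238, adjusted p = 0.131). Of these 7 genes, 6 were higher in females at an unadjusted p under 0.05 (7.67% of all genes tested), and 0 passed both thresholds. Their median log2 difference was 0.45, and Avpr2 had separate ranges with 13.6 and 18.4 FPKM (limma adjusted p = 0.0469). In thick limb and distal convoluted tubule, podocyte, endothelium, leukocyte, adipocyte and liver lists the exact p lay between 0.0556 and 0.365, with 1 adipocyte gene, Cidec, lower and 1 liver gene, Ttr, higher in females past both thresholds. Adipoq, a further adipocyte gene, lay the other way with 0.74 and separate ranges (adjusted p = 0.0731), the median of the 5 liver genes tested was −0.34, and Ttr had 0 reads in males and 37 in females, so it passed the filter only through the females. With 11 lists, a single list at the smallest exact p reaches an adjusted p of 0.0873, so 1 list alone could not pass 0.05, and the part of these differences in the members' levels was not tested.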

How the data were processed

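RNA-seq libraries of renal cortex from 10 PCK rats were grouped into 5 males and 5 females by the labelled sex. Per the labels and the methods of the study, poly-A RNA was sequenced by a provider, reads were mapped to Rnor_6.0, and the authors deposited FPKM for 32545 genes. The submitters' processing notes name fastp, HISAT2 2.0.5, StringTie 1.3.3b and featureCounts 1.5.0-p3. Whether counting used strand is not given in the sources used here.

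The FPKM divided by the worth of 1 read at the gene's length gave whole reads (within 0.01) for all values, which gave the depth. These reads served the depth, the limit of detection of 3 reads and an alternative fit with limma-voom. The main fit was limma 3.58.1 in R 4.3.3 (lmFit, eBayes with trend) on log2(FPKM + 0.1) for the 17631 genes averaging 0.1 FPKM or more, with Benjamini-Hochberg adjustment over all of them. The fit was checked on simulated data. Marker sums had exact permutation tests, two-sided, with Benjamini-Hochberg adjustment over 11 lists. No p is given for the members. Promoter windows were searched and aligned with Python 3.11.15 and Biopython 1.88.

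The members and the gene lists were chosen with earlier results of these data known. Named genes were the members, all other Akr and Kcnab genes, and of each list the genes past both thresholds and the 3 with the highest mean FPKM, with those of the kidney cell type lists given mainly as sums; 1 gene of the polyol list that the rule names is not reported here. Genes named only for an unadjusted p, separate ranges or an alternative setting were named after their values were seen. For each member but Akr1b7, whose male reads were too few, the 3 genes (mean of at least 1 FPKM, no member) with the highest Pearson r after subtracting the mean of each sex were also named. RefSeq symbols matched all 9 members. No per-sample column was left out. Protein sequences were not used here. 8 listed pathway symbols, among them Adh1 and Slc5a3, were not matched in the table by symbol and were not analysed here, nor was Cyp11b1. Alternatives were other pseudocounts, filters and scalings, eBayes without trend or robust, limma-voom, a block for the replicate number, calls on the adjusted p only, and leaving out each library in turn.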

Additional observations from a re-analysis of the deposited data

How the results depend on the processing

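The 3 members past both thresholds were the same genes, in the same directions, in all 21 alternatives fitted for them, of which median-ratio scaling used the same factor, 1.01, for every library and so could move little; with the adjusted p alone Akr1c19 was added, for 3 lower in females. The log2 difference of Akr1b7 was 2.30 with a pseudocount of 1, 6.76 with 0.01 and 6.22 with limma-voom on the recovered reads; its male reads were at or below the limit of detection. That of Akr1c13 was −1.31 with a pseudocount of 1. Leaving out each library in turn gave −5.72 to −5.37 for Akr1c12l1, −1.84 to −1.58 for Akr1c13, −0.85 to −0.70 for Akr1c19 and 4.61 to 5.18 for Akr1b7; members not past the thresholds moved relatively more, with −0.31 to −0.09 for Akr1a1, −0.44 to −0.26 for Akr1b8, −0.21 to −0.05 for Akr1b1 and 0.38 to 0.76 for Akr1c14. That of Akr1e2, 0.03, lay between −0.04 and 0.14 and so changed sign.

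Over all genes, 65 were higher and 72 lower with a pseudocount of 1, and 223 higher and 201 lower with the adjusted p alone, against 109 and 123. Genes of the pathway lists higher in females numbered 2 with a pseudocount of 1, a filter at a mean of 1 FPKM or limma-voom, each adding Hsd17b2, and 2 with eBayes without trend, adding Akr1c2; leaving out each library gave 1 to 2, with 2 without male 2 or female 2. The log2 difference of Esr1 was −0.954 with a pseudocount of 1, short of the fold threshold, and without female 4 Hsd11b1 was added to the genes lower in females. Male and female libraries of the same number did not deviate together (correlations from −0.16 to 0.16), so the numbers were not taken as pairs; the replicate block left 89 genes higher and 87 lower and 1 and 2 members.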

Other observations

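Within sexes, members differed in which genes they followed over the 10 libraries, with a Pearson r of log2(FPKM + 0.1) after subtracting the mean of each sex, over 13354 genes, as a description. The points share library depth and tissue makeup. Akr1a1 was most like Elovl2 (r = 0.993), a fatty acid elongase, and Sdhc (0.990) and Fh (0.989), enzymes of the citric acid cycle. Akr1c12l1 was most like Iah1 (0.968), an esterase, Glod4 (0.960) and Glo1 (0.958), the glyoxalase that detoxifies methylglyoxal. Akr1e2 was most like Gin1 (0.982), Cct6a (0.977) and AABR07061345.1 (0.974). Akr1b1 was most like Gpr160 (0.975), Mfng (0.973) and Map3k8 (0.970).

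Akr1b8 was most like Gpr137b (r = 0.893), Zfp93 (0.882) and the glucose transporter Slc5a1 (0.875), and for Akr1b7, whose 5 male values rest on 0 to 3 reads and so mostly reflect counting error, no likeness is given. Akr1c13 was most like Urm1 (0.939), Atp6v1e1 (0.928) and Dars (0.923), Akr1c19 most like Chchd6 (0.925), H2afv (0.909) and H2afz (0.905), and Akr1c14 most like Ptn (0.944), Tmem150c (0.918) and Tspan2 (0.909). Among pairs of members the highest r was 0.90, between Akr1c14 and Akr1c19, followed by 0.78 for Akr1a1 with Akr1e2, 0.76 for Akr1b1 with Akr1c19, 0.74 for Akr1c12l1 with Akr1e2 and 0.73 for Akr1b1 with Akr1c14.

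LOC100910708, a further gene with the aldo-keto reductase domain on chromosome 4 from 62019970 to 62030874, was named after its values were seen. It had 78 reads in all and ranged from 0 to 0.625 FPKM in the males and from 0 to 1.28 FPKM in females (limma adjusted p = 0.976).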
